A study of Mus musculus with 8 samples.

Results

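The mitochondrial respiratory chain was described across mouse bone marrow macrophages and colony cells, through the nuclear genes that encode its subunits. Members were the array probes, other than control probes, whose gene name begins with Nduf, Uqcr or Atp5, or with Cox followed by 4, 5, 6, 7 or 8. The rule used names and no measured value. It found 128 of 55681 probes, for 86 of 34844 gene names, and 83 of these genes were measured well enough to be tested. RNA was measured on 8 one-colour arrays, where Cy3-labelled RNA binds to printed probes and a scanner reads how brightly each spot glows. There were 4 groups of 2 samples, all from mice of a B6.Cg strain with a CAG-DsRed*MST transgene, so every group, the controls included, carries that transgene. Marrow cells grown for 7 days with the growth factor M-CSF became macrophages, which were left in control media or stimulated for 24 hours with IL-4 or with LPS. IL-4 is a cytokine used to drive alternative activation of macrophages, and LPS is a bacterial product used to drive classical activation. The colony cells come from marrow cells that spent 7 days on a monolayer of endothelial cells in HSC media. Substrate and medium thus differ together between them and the macrophages. Whether endothelial cells were removed before RNA was taken is not given in the labels. The labels do not tell whether the 2 samples of a group were separate animals or cultures, so each p-value measures only the spread between these samples, which may be technical.

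The respiratory chain lies in the inner mitochondrial membrane. Complex I takes electrons from NADH and complex II from succinate, complex III passes them through cytochrome c to complex IV, which reduces oxygen, and the protons pumped on the way drive ATP synthase, also called complex V. Most subunits are encoded in the nucleus and imported, while the mitochondrial genome encodes a few central subunits of every complex except complex II. In macrophages, classical activation is known for a shift toward glycolysis and alternative activation for reliance on oxidative phosphorylation.

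By role, the 86 genes were 7 core subunits of complex I, 29 accessory subunits of complex I, 4 complex I assembly factors named Ndufaf, 8 subunits of complex III, 11 nuclear subunits of complex IV that most tissues use, 9 tissue or condition isoforms of complex IV, 15 subunits of ATP synthase and 3 genes in the set by name alone. Those last 3 are Emc8, listed on the array as Cox4nb, and the factors Dmac2 and Dmac2l, listed as Atp5sl and Atp5s. Ndufa4 was counted with complex IV, where its protein is now placed. The 3 genes that did not pass the filter on dim probes were Cox8b, Cox8c and Cox7b2, all tissue isoforms of complex IV. The 83 tested genes were well above background on both arrays of all 4 groups.

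Promoters of these genes are known for sites of NRF-1, a factor that activates many nuclear genes of mitochondria. RefSeq windows on GRCm38.p6, from 250 bases before to 50 bases after the start of transcription, matched 71 of the 86 genes. The NRF-1 consensus, read like every motif here on both strands, occurred in the windows of 16 of these 71 genes (22.5%), against 5.19% of all 27025 genes with a window. The letters AAGATGGC, standing for YY1, occurred in 11 (15.5%, against 3.19% of all genes). CCGGAAGT, standing for ETS factors such as GABPA, occurred in 5 (7.04%, against 4.31%), and TCAAGGTCA, standing for ESRRA, in 1, Atp5g3. GGGCGG, the Sp1 box, occurred in 31 (43.7%, against 38.2%) and the CCAAT box in 32 (45.1%, against 41.1%). None of these motifs contains another. Below are stretches of 100 bases before the start site of 4 members, at positions -130 to -31 for Ndufaf4 and -100 to -1 for the others. These members were chosen because the same NRF-1 match, in capitals, stands in front of genes that moved differently after LPS. Ndufa11 and Atp5k encode accessory subunits of complex I and of ATP synthase, Ndufaf4 a complex I assembly factor and Atp5g2 a membrane-ring subunit of ATP synthase. They lie at chr17:56717662-56717761 on the plus strand for Ndufa11, chr4:24897953-24898052 on the plus strand for Ndufaf4, chr15:102671048-102671147 on the minus strand for Atp5g2 and chr5:108434400-108434499 on the minus strand for Atp5k (GRCm38.p6).
Ndufa11: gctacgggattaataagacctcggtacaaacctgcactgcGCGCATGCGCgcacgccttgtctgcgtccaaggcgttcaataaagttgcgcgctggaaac
Ndufaf4: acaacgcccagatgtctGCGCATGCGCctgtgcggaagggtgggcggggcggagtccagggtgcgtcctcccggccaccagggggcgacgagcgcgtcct
Atp5g2: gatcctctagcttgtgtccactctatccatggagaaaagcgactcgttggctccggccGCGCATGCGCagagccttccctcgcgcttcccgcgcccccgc
Atp5k: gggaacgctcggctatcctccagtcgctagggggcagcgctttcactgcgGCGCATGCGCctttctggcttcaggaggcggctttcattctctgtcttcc
After LPS the log2 fold change was 1.00 for Ndufa11, 0.98 for Ndufaf4, 0.36 for Atp5k and -0.39 for Atp5g2. Of the 16 genes with the NRF-1 letters, all tested, 9 were higher and 2 lower after LPS, with a median log2 fold change of 0.30. Of 53 tested genes whose window lacked them, 29 were higher and 5 lower, with a median of 0.33. A match of letters is a description of these windows, and binding was not measured.

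Levels below are log2 intensities relative to the 75th percentile of each array, and differences are log2 fold changes with their standard error after ±, from 2 arrays per group. A gene was called where the limma p-value, adjusted by Benjamini-Hochberg over all 26504 genes tested, was under 0.05. The share of spots clearly brighter than background was 62.4% to 67.5%, except for LPS replicate 2 with 72.2%, an array that also held 105 uneven spots against 0 to 5 elsewhere. The median signal of an array was 28.1 to 55.1 intensity units over a local background of 17 to 21. No array had a saturated spot. The 9 of 10 macrophage markers that could be tested were above background in every group. Their summed level, in multiples of the 75th percentile signal, was 2055 to 2066 in control, 1499 to 1545 in IL-4, 1623 to 1870 in LPS and 171 to 175 in colony cells.

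LPS against control asks how classical activation changes the genes of the chain. Most called members were higher after LPS: 44 of 83 rose and 7 fell, and 32 did not pass the test. Over all genes tested, 28.9% were called higher and 25.8% lower. The members' median was 0.31, against 0.07 over all genes. Higher members were spread over the complexes, with 5 of 7 core and 16 of 29 accessory subunits of complex I, 4 of 8 of complex III, 7 of 11 ubiquitous subunits of complex IV and 8 of 15 of ATP synthase. The 7 lower genes were Ndufb11, Ndufa6, Uqcrfs1, Cox7a1, Cox7a2l, Atp5g2 and Dmac2. The split depended on the scaling of the arrays. Quantile normalization gave 20 higher and 19 lower (24.1% and 22.9% of members, against 24.2% and 30.7% of all genes). Both median centring and the authors' deposited table gave 15 higher and 8 lower. With median centring that was 18.1% and 9.64% of members, against 18.7% and 28.2% of all genes. In the deposited table it was 17.9% and 9.52%, against 18.9% and 30.2%. Under these 3 scalings none of the 7 core subunits of complex I was called higher, and complex III had 1 higher gene with quantile normalization and 0 with the other scalings. The members' median stayed above 0 under each scaling, between 0.06 with quantile normalization and 0.35 with another background correction. A set of 15 higher and 4 lower calls held under all 15 alternatives tried. Marker sums moved with LPS too. The 8 leukocyte markers, all above background in the control macrophages as well, summed to 1707 to 1965 against 1144 to 1172. Of these, 5 were called higher and 2 lower. The 6 mast cell markers summed to 8.53 to 9.16 against 0.69 to 0.85, with Cpa3 not above background. Only 1 of the 6 was called higher, and 2 were called lower. The 8 fibroblast markers summed to 1.47 to 1.67 against 0.55 to 0.67, with Pdgfra and Thy1 not above background. Here 3 were called higher and 2 lower. The part of other cell types in the members' changes was not tested.

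**Figure D1:**
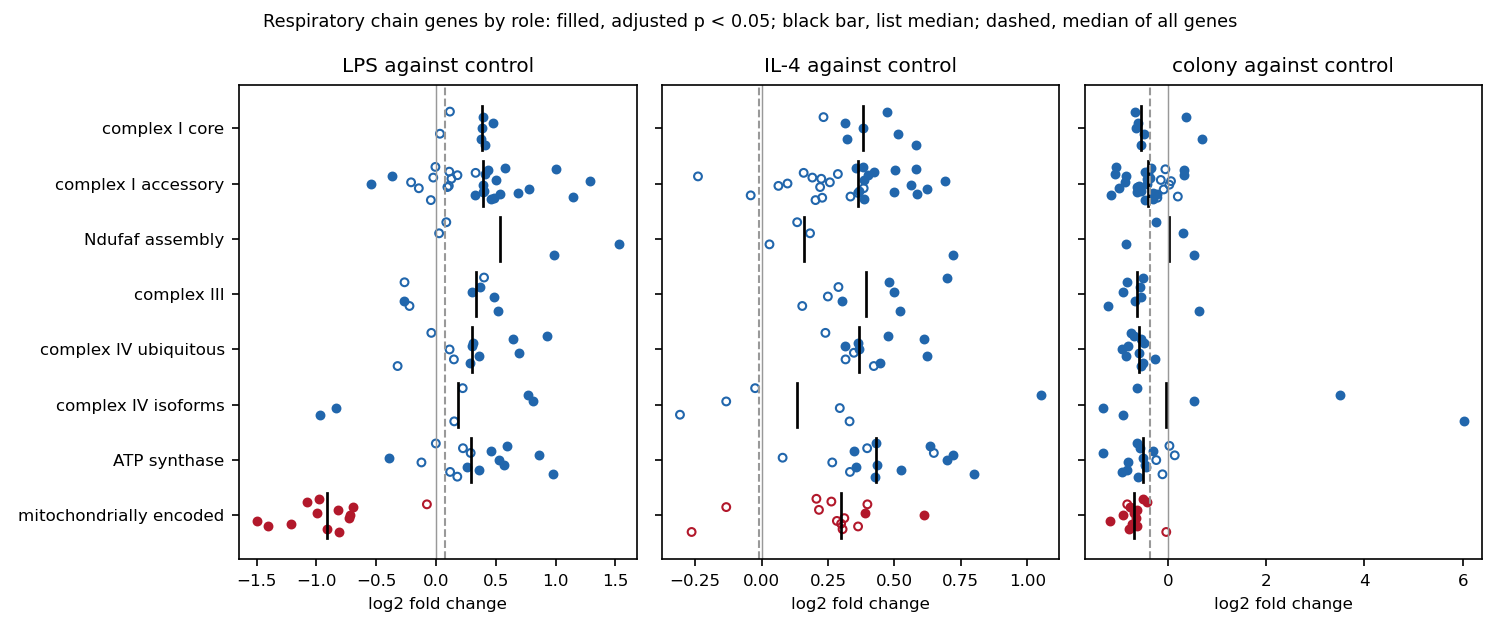
Log2 fold change of each gene (x axis) by role (y axis) for LPS, IL-4 and colony cells against control. Blue points are nuclear members and red points the 13 mitochondrially encoded genes; filled points passed the test. In the LPS panel most filled blue points lie right of 0 (44 of 51) while all 12 filled red points lie left of it.

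Among complex I subunits the highest changes after LPS were in accessory subunits. Ndufab1, the mitochondrial acyl carrier protein that also sits in complex I, read 0.27 and 0.17 on the control arrays, 0.86 and 0.95 with IL-4, 1.45 and 1.55 with LPS, and 0.28 and 0.29 in colony cells. Both LPS arrays lay above both IL-4 arrays, which lay above the controls, and the colony arrays lay only just above the controls. The change was 1.28 ± 0.08 (adjusted p = 7.5e-05), a 2.43-fold rise. Ndufs4, an accessory subunit needed for late complex I assembly, read 3.25 and 2.94 in control, 3.39 and 3.46 in IL-4, 4.29 and 4.19 in LPS, and 3.22 and 3.37 in colony cells. LPS stood apart from the other groups here, with a rise of 1.15 ± 0.12 (adjusted p = 0.00073). Ndufa11, a membrane-arm subunit, rose by 1.00 ± 0.08 (adjusted p = 0.00018) from 2.26 and 2.11 to 3.17 and 3.19. Ndufb6 followed at 0.77 ± 0.12 (adjusted p = 0.0034).

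Core subunits carry the flavin and the iron-sulfur clusters of complex I. Their median change was 0.38 over 7 genes, beside 0.39 over the 29 accessory subunits. The 5 called core genes rose by 0.38 to 0.48, with Ndufs3 highest at 0.48 ± 0.08 (adjusted p = 0.0034), and Ndufs1 and Ndufs8 did not pass at 0.12 ± 0.07 and 0.03 ± 0.09. Among accessory subunits, Ndufb11 was lower. It read 5.80 and 5.75 in control and 5.18 and 5.28 in LPS, a fall by 0.54 ± 0.07 (adjusted p = 0.0014), while IL-4 (5.86 and 5.89) lay just above control. Ndufa6 fell by 0.37 ± 0.12 (adjusted p = 0.044) and lost its call under 6 of the 15 alternatives.

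The largest change of any member after LPS was in Ndufaf3, which helps build the early modules of complex I. It read 1.10 and 0.99 in control, 1.07 and 1.08 in IL-4, 2.55 and 2.59 in LPS, and 0.20 and 0.17 in colony cells. LPS was above all other arrays and colony cells were below all of them. The rise after LPS was 1.53 ± 0.07 (adjusted p = 2.7e-05), or 2.88-fold. Ndufaf4, another early assembly factor, read 1.01 and 0.88 in control, 1.63 and 1.70 in IL-4, 1.90 and 1.95 in LPS, and 1.41 and 1.53 in colony cells, so every other group lay above the controls. Its rise after LPS was 0.98 ± 0.08 (adjusted p = 0.00026), while a dimmer probe of Ndufaf4 differed by 0.51. Ndufaf1 and Ndufaf2 did not pass, at 0.09 ± 0.08 and 0.03 ± 0.09.

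**Figure D2:**
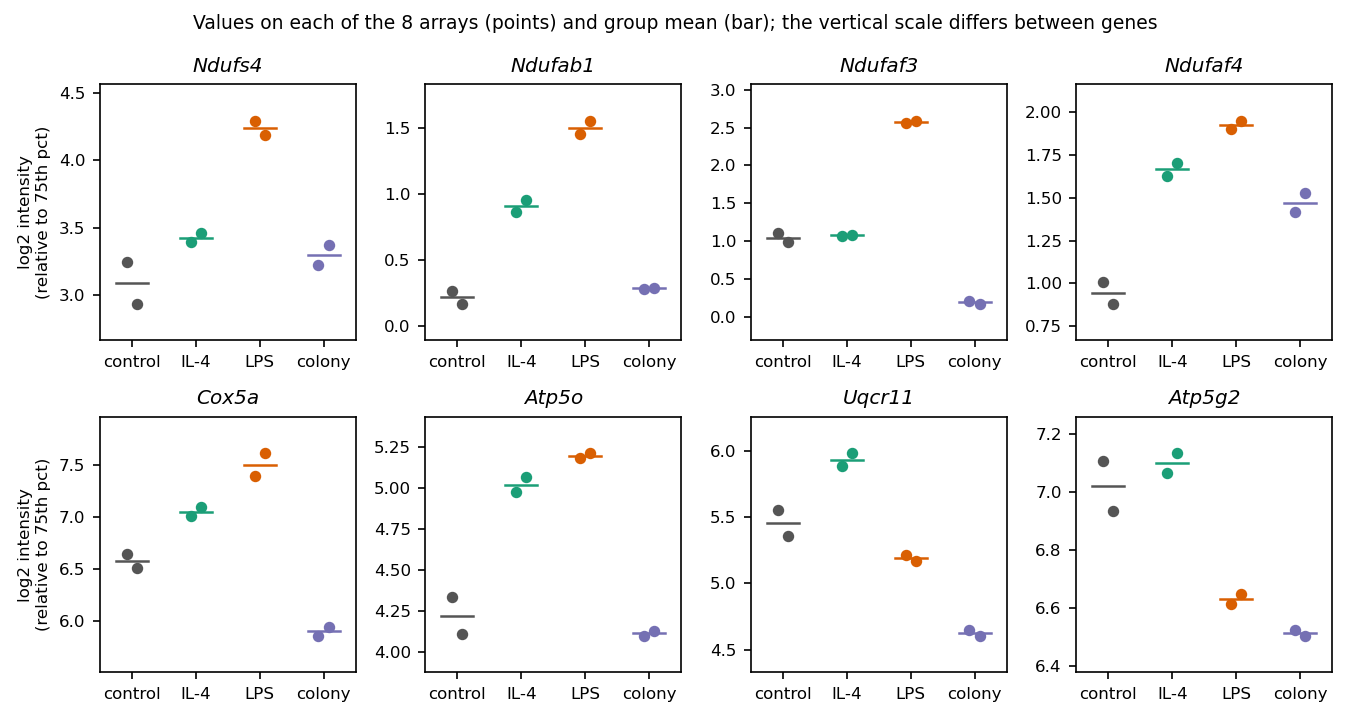
Log2 intensity relative to the array's 75th percentile (y axis) of 8 members in each group (x axis). Points are arrays and bars group means, and scales differ between genes. Ndufaf3 and Ndufs4 are high on the LPS arrays alone, while Ndufaf4 is above control in all 3 other groups.

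In complex III, 4 genes rose after LPS by 0.30 to 0.52, with Uqcrq, a small subunit beside cytochrome b, highest at 0.52 ± 0.08 (adjusted p = 0.0031). Uqcrfs1, the Rieske iron-sulfur protein, fell by 0.27 ± 0.07 (adjusted p = 0.019), and 4 alternatives ended that call. Uqcr11, the smallest subunit, read 5.55 and 5.36 in control, 5.89 and 5.98 in IL-4, 5.21 and 5.17 in LPS, and 4.65 and 4.60 in colony cells. Its LPS arrays lay below the controls, with a difference of -0.26 ± 0.09, just short of the threshold (adjusted p = 0.052). Cytochrome c1 is a complex III subunit whose gene, Cyc1, the name rule does not reach. Cyc1 rose by 1.25 ± 0.07 (adjusted p = 6.6e-05), where the highest Uqcr gene stood at 0.52.

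In complex IV, Cox5a, a subunit on the matrix side of the enzyme, read 6.64 and 6.51 in control, 7.01 and 7.10 in IL-4, 7.39 and 7.61 in LPS, and 5.86 and 5.94 in colony cells. The 4 groups did not overlap, and the rise after LPS was 0.93 ± 0.10 (adjusted p = 0.00083). Cox7a2 rose by 0.69 ± 0.11 (adjusted p = 0.0031) and Cox5b, a zinc-binding subunit, by 0.64 ± 0.09 (adjusted p = 0.0016). None of the 11 ubiquitous subunits was called lower by limma, and 0 were lower at an unadjusted p under 0.05, but quantile normalization called 2 of them lower. In ATP synthase, Atp5o, the stalk subunit OSCP, read 4.33 and 4.11 in control, 4.97 and 5.07 in IL-4, 5.18 and 5.21 in LPS, and 4.10 and 4.13 in colony cells. LPS and IL-4 were both above the controls, and the LPS rise was 0.98 ± 0.09 (adjusted p = 0.00047). Atp5b, the catalytic beta subunit, rose by 0.59 ± 0.07 (adjusted p = 0.0011), while Atp5a1, the alpha subunit, did not pass at -0.00 ± 0.07 (adjusted p = 0.99).

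The membrane ring of ATP synthase is made of 1 protein that 3 genes encode, Atp5g1, Atp5g2 and Atp5g3, which differ in their import sequence. After LPS, Atp5g1 rose by 0.86 ± 0.08 (adjusted p = 0.00038) from 5.27 and 5.10 to 6.02 and 6.07, and Atp5g3 rose by 0.53 ± 0.10 (adjusted p = 0.0066). Atp5g2 went the other way, from 7.11 and 6.93 in control to 6.61 and 6.65, a fall by 0.39 ± 0.08 (adjusted p = 0.0097). A pair of probes reports Atp5g1, and they disagreed: the one that represents the gene (chr11:95934315-95934374, mm9) differed by 0.86 between LPS and control, and the dimmer one (chr11:95930317-95930376) by -0.25. The array files list these probes under different transcript records.

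Genes of the same complexes on the mitochondrial genome moved the opposite way after LPS, though the extent of the nuclear rise depended on the scaling. Of the 13, none was higher and 12 fell, with a median of -0.91, and 11 or 12 were called lower under each alternative. The largest falls were in complex I genes: ND3 by 1.49 ± 0.10 (adjusted p = 9.6e-05), ND4L by 1.40 ± 0.15 (adjusted p = 0.00074) and ND4 by 1.21 ± 0.09 (adjusted p = 0.00016). ND3 read 5.44 and 5.36 in control and 4.02 and 3.80 in LPS, against 5.73 and 5.64 in IL-4. COX1, named here after its values were seen, was the gene that did not pass, at -0.08 ± 0.43 (adjusted p = 0.90), with control arrays at 9.21 and 8.25. The nuclear side was less stable. Quantile normalization gave 20 higher and 19 lower members, with a median of 0.06, beside -1.08 over the mitochondrial genes. Median centring gave 15 and 8, with medians of 0.13 and -1.09. Another background correction gave 50 and 7, with medians of 0.35 and -0.84. With the percentile scaling, the median within complex I was 0.39 over 36 nuclear subunits and -0.91 over 7 mitochondrial ones. Complex III gave 0.33 over 8 nuclear genes and -0.99 for CYTB, complex IV 0.30 over 11 and -0.69 over 3, and ATP synthase 0.29 over 15 and -1.03 over 2. The array files place 6 of the 13 mitochondrial probes on chromosome 1, where the nuclear genome holds a copy of mitochondrial sequence, and 7 on chromosome M. Transcripts of the copy and of the original cannot be told apart by the first 6.

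**Figure D3:**
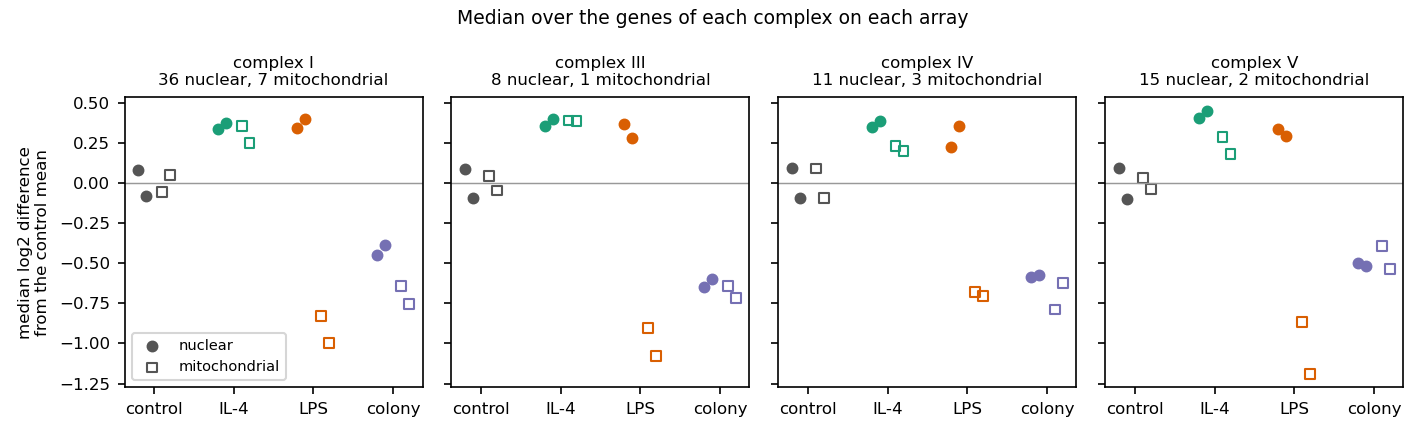
Median log2 difference from the control mean (y axis) over the nuclear (filled circles) and mitochondrial (open squares) genes of complexes I, III, IV and V, for each array of each group (x axis). On the LPS arrays the nuclear medians lie between 0.23 and 0.40 and the mitochondrial medians between -1.19 and -0.68. With IL-4 both lie above 0, and in colony cells both lie below it. Only the percentile scaling is drawn, and the split of nuclear members after LPS depended on the scaling.

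Other genes of the pathway, from lists of named genes, gave the following after LPS, where 28.9% of all genes were called higher and 25.8% lower. Cycs, cytochrome c itself, read 3.91 and 3.69 in control and 6.27 and 6.31 in LPS, a 5.61-fold rise (2.49 ± 0.09 on the log2 scale, adjusted p = 1.3e-05). Of 17 complex IV assembly factors, 11 rose and none fell, led by the membrane insertase Cox18 (2.43 ± 0.08), Coa5 (1.89 ± 0.11), the copper carrier Sco1 (1.48 ± 0.12) and the heme synthesis enzyme Cox10 (0.94 ± 0.15). Of 15 assembly factors of complexes I, III and V, 9 rose and 3 fell. Among them, Atpaf1, an ATP synthase assembly factor, was not well above background on the LPS arrays and lay at least 1.45-fold lower there, a bound set by the dimmest signal still well above background (limma adjusted p = 0.032). The highest were Uqcc2 at 1.21 ± 0.15, Ttc19 at 0.92 ± 0.09 and Ecsit at 0.80 ± 0.07. Complex II, whose 4 genes are all nuclear, showed 1 higher gene, Sdhb (0.51 ± 0.09). Among 17 regulators of mitochondrial biogenesis, 5 rose and 4 fell, shares near those of all genes, with a median of 0.02. Ppargc1b, a coactivator of these programmes, rose by 1.46 ± 0.09, and Esrra, a nuclear receptor it works with, by 1.22 ± 0.08. Perm1 rose by 2.22 ± 0.26 and Polg2, the accessory subunit of the mitochondrial DNA polymerase, fell by 1.04 ± 0.11. The other changes named here passed the limma test (adjusted p 0.0043 or lower).

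IL-4 against control asks the same of alternative activation. The chain moved in 1 direction but by little: 45 members rose, 1 fell and 37 did not pass, with 9.87% of all genes called higher and 9.18% lower. The members' median was 0.36, against -0.01 over all genes, and 76 of the 83 lay above 0. Called genes were 6 of 7 core and 14 of 29 accessory subunits of complex I, 5 of 8 of complex III, 7 of 11 ubiquitous subunits of complex IV and 10 of 15 of ATP synthase. The count leaned on single arrays: with 1 array left out, fewer members were called higher, and so were fewer of all genes. The members' median was 0.34 without IL-4 replicate 2 and 0.38 without IL-4 replicate 1, against -0.02 and 0.01 over all genes. It was 0.28 without control replicate 2 and 0.45 without control replicate 1, against -0.04 and 0.02. Median centring gave 15 higher (18.1% of members, against 5.32% of all genes). The authors' deposited table gave 17 (20.2%, against 5.79%). The members' median stayed between 0.27 and 0.45 under every alternative. Under median centring and in the deposited table, complex III had 0 higher genes, the core of complex I 1 and 2, its accessory subunits 5 under both, the ubiquitous complex IV subunits 3 and 4, and ATP synthase 4 under both. Across the 15 alternatives, 7 calls held: Cox6a2, Atp5o, Ndufaf4, Atp5g1, Ndufab1, Atp5b and Ndufc1.

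Atp5o was up by 0.80 ± 0.09 (adjusted p = 0.0043) after IL-4, Ndufaf4 by 0.72 ± 0.08 (adjusted p = 0.0037) and Ndufab1 by 0.69 ± 0.08 (adjusted p = 0.0035). Atp5b, the catalytic subunit, read 6.67 and 6.57 in control and 7.24 and 7.26 in IL-4, and rose by 0.63 ± 0.07 (adjusted p = 0.0037). Ndufc1, a small complex I subunit, read 4.58 and 4.48 in control and 5.11 and 5.11 in IL-4, and rose by 0.58 ± 0.07 (adjusted p = 0.0040). In each of these genes both IL-4 arrays lay above both control arrays. Cytochrome c (Cycs) rose by 1.09 ± 0.09 and Cyc1 by 0.89 ± 0.07. The gene that fell was Dmac2, an assembly factor named like ATP synthase on the array, by 0.45 ± 0.08 (adjusted p = 0.015).

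The mitochondrial genes did not fall with IL-4. CYTB and ND1 were called higher, at 0.39 ± 0.09 (adjusted p = 0.031) and 0.61 ± 0.13 (adjusted p = 0.026), and the median of the 13 was 0.30. Neither of those calls held when an array was left out, where the count of higher mitochondrial genes was 0 each time. The largest change among the regulators was in Ppargc1b, which read -3.28 and -3.20 in control, -0.04 and -0.24 in IL-4, -1.78 and -1.77 in LPS, and -3.02 and -2.96 in colony cells. IL-4 lay above LPS and LPS above control, and the IL-4 rise was 8.55-fold (3.1 ± 0.09 on the log2 scale, adjusted p = 4.9e-05). Esrra rose by 0.40 ± 0.08 (adjusted p = 0.020), and the other 15 regulators did not pass. In complex II, Sdha rose by 0.32 ± 0.07 and Sdhc by 0.45 ± 0.10.

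Set directly against LPS, IL-4 gave 21 higher and 14 lower members (25.8% and 26.8% of all genes), with a median of 0.12, against -0.06 over all genes. The counts of members were smaller with 1 array left out. The members' median was then 0.10 to 0.13, against -0.17 to 0.00 over all genes. Quantile normalization gave 41 higher and 7 lower (49.4% and 8.43% of members, against 30.3% and 22.6% of all genes). Median centring and the authors' deposited table both gave 26 and 4. With median centring that was 31.3% and 4.82%, against 29.5% and 16.7% of all genes. In the deposited table it was 31% and 4.76%, against 32.2% and 16.5%. The genes that were higher with IL-4 included Cox7a1 (1.13 ± 0.11, adjusted p = 0.00043), Uqcr11 (0.74 ± 0.09, adjusted p = 0.0012) and Ndufb11 (0.64 ± 0.07, adjusted p = 0.00077). Those lower with IL-4 were led by Ndufaf3 (-1.50 ± 0.07, adjusted p = 2.9e-05), Cox6b2 (-0.94 ± 0.10, adjusted p = 0.00085), Ndufs4 (-0.81 ± 0.12, adjusted p = 0.0030) and Ndufab1 (-0.59 ± 0.08, adjusted p = 0.0016). Of the mitochondrial genes, 11 of 13 were higher with IL-4 than with LPS and none was lower, with a median of 1.22. This comparison and the 2 against control share arrays.

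Isoforms of complex IV subunits include several first described in muscle, testis or low oxygen, and 4 of the 6 tested were called after LPS, with 2 higher and 2 lower under every scaling tried, shares near those of all genes (28.9% higher and 25.8% lower). Cox6a2, the heart and muscle form of Cox6a1, read -0.70 and -1.01 in control, 0.21 and 0.18 in IL-4, -0.08 and -0.09 in LPS, and 2.69 and 2.62 in colony cells. All 3 other groups lay above control, by 1.05 ± 0.11 with IL-4 (adjusted p = 0.0029), 0.77 ± 0.11 with LPS (adjusted p = 0.0023) and 3.51 ± 0.11, or 11.4-fold, in colony cells (adjusted p = 3.4e-06). Its ubiquitous partner Cox6a1 read 7.89 on both control arrays, 8.22 and 8.27 in IL-4, 8.11 and 8.27 in LPS, and 7.40 on both colony arrays. Cox7a1, the muscle form of Cox7a2, read 0.93 and 0.70 in control, 1.03 and 1.19 in IL-4, -0.03 and -0.01 in LPS, and -0.55 and -0.47 in colony cells. It fell by 0.84 ± 0.11 after LPS (adjusted p = 0.0013), where Cox7a2 rose, and both were lower in colony cells, by 1.32 ± 0.11 (adjusted p = 0.00012) and 0.58 ± 0.11 (adjusted p = 0.0043).

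Cox7a2l, the third member of that family, is known for a role in supercomplexes of complexes III and IV. Whether it has that role in mice of this strain was not tested. It read 7.28 and 7.05 in control, 6.81 and 6.91 in IL-4, 6.13 and 6.26 in LPS, and 6.23 and 6.29 in colony cells. The LPS and colony arrays overlapped each other and lay below the rest. The fall was 0.97 ± 0.10 with LPS (adjusted p = 0.00071) and 0.90 ± 0.10 in colony cells (adjusted p = 0.00056), and IL-4 did not pass at -0.31 ± 0.10 (adjusted p = 0.10). Cox6b2, the testis form of Cox6b1, rose by 0.81 ± 0.10 after LPS (adjusted p = 0.0015) and 0.53 ± 0.10 in colony cells (adjusted p = 0.0052). Cox4i2, the lung form of Cox4i1 that responds to low oxygen, fell in colony cells by 0.62 ± 0.08 (adjusted p = 0.00088). Cox8c, which did not pass the filter on dim probes, read -0.75 on colony replicate 2 and -8.38 on colony replicate 1.

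Ndufa4 has paralogs, of which AA467197 encodes a protein known to replace it in complex IV. Ndufa4 itself read 4.73 and 4.28 in control, 4.85 and 5.0 in IL-4, 4.15 and 4.21 in LPS, and 3.92 and 4.02 in colony cells. Against control the LPS difference of -0.32 ± 0.16 did not pass (adjusted p = 0.14), nor did the IL-4 difference of 0.42 ± 0.16 (adjusted p = 0.13), while IL-4 was higher than LPS by 0.74 ± 0.16 (adjusted p = 0.011). In colony cells it was lower by 0.54 ± 0.16 (adjusted p = 0.025), a call that 5 alternatives ended. AA467197, a small Ndufa4-like gene known as an inflammation-induced paralog, read -2.25 and -2.41 in control, 0.42 and 0.51 in IL-4, 3.93 and 3.94 in LPS, and 4.65 and 4.77 in colony cells. It rose 77.0-fold with LPS (6.27 ± 0.09 on the log2 scale, adjusted p = 1.3e-06), 6.96-fold with IL-4 (adjusted p = 6.2e-05) and 131.6-fold in colony cells (adjusted p = 4.5e-07). The 4 groups did not overlap.

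Ndufa4l2, a paralog known for induction in low oxygen, followed another pattern. It read -5.23 and -5.55 in control, -5.25 and -4.87 in IL-4, -5.27 and -5.20 in LPS, and 0.65 and 0.62 in colony cells. The 3 macrophage groups overlapped, and colony cells stood 65.1-fold above control (6.02 ± 0.16 on the log2 scale, adjusted p = 1.9e-06). Higd1a and Higd2a, small factors that bind complex IV or help assemble it, moved apart from each other. Higd1a rose by 1.44 ± 0.10 with LPS and 1.71 ± 0.10 in colony cells, and Higd2a fell by 0.71 ± 0.07 and 1.12 ± 0.07. Atpif1, the inhibitor of ATP synthase, fell by 0.79 ± 0.10 with LPS (adjusted p = 0.0014) and 1.40 ± 0.10 in colony cells (adjusted p = 7.7e-05), and read 0.07 ± 0.10 with IL-4 (adjusted p = 0.71).

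**Figure D4:**
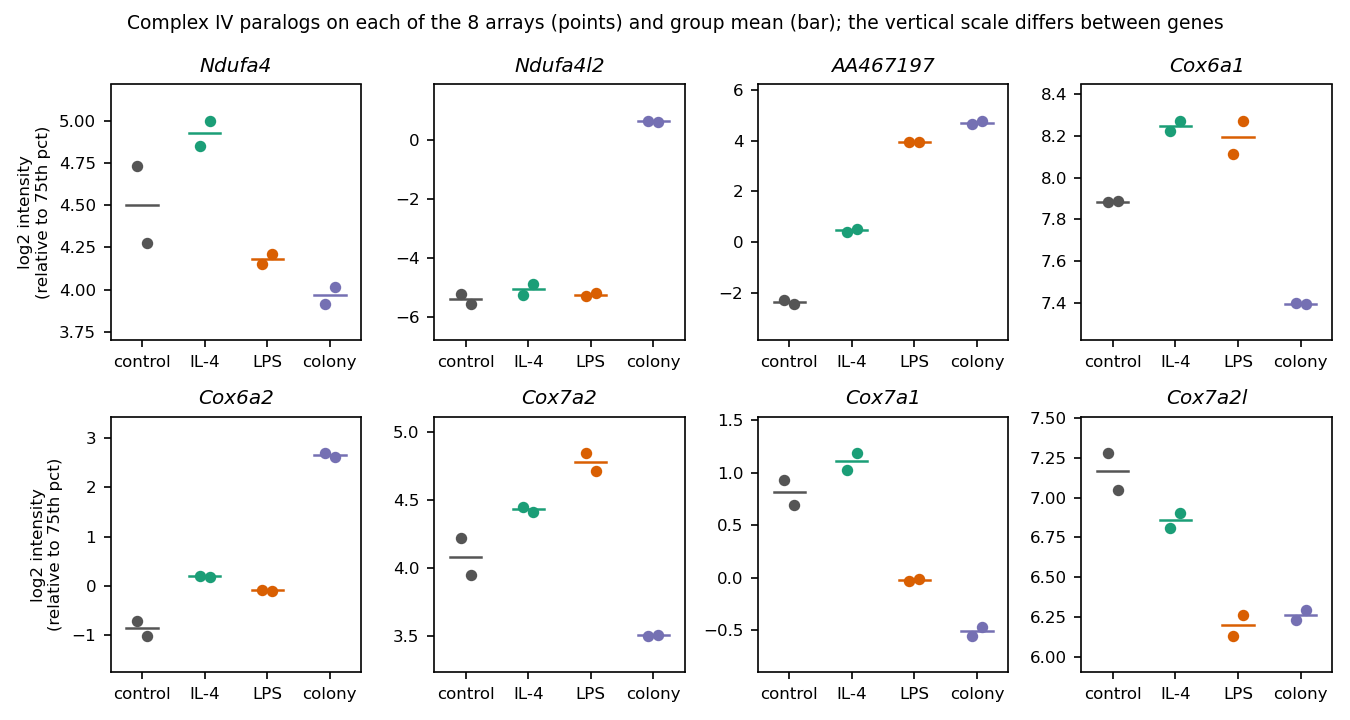
Log2 intensity relative to the array's 75th percentile (y axis) of Ndufa4 and Cox subunits with their paralogs in each group (x axis). Points are arrays and bars group means, and scales differ between genes. Ndufa4l2 is high in colony cells alone, AA467197 in LPS and colony cells, and Cox7a1 and Cox7a2l are low in both of these groups.

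Colony cells against control compares cells from marrow cultures on endothelium with unstimulated macrophages. Cells of the monolayer may be among the colony cells, since the labels do not give their removal. Most members were lower: 61 of 83 fell, 11 rose and 11 did not pass, where 46.7% of all genes were called lower and 24.7% higher. The members' median was -0.51, against -0.35 over all genes, so -0.15 relative to them, and 29 of the 83 lay above the median of all genes. That relative shift turned with the processing, to 0.16 with quantile normalization and 0.01 with another background correction. Quantile normalization gave 35 lower and 20 higher members (42.2% and 24.1%), near the shares of all genes (43.2% and 27.6%). Under the other alternatives 50 or more were called lower. All 11 ubiquitous complex IV subunits fell, as did 20 of 29 accessory and 5 of 7 core subunits of complex I, 7 of 8 of complex III and 11 of 15 of ATP synthase. With quantile normalization the accessory subunits of complex I split evenly, 8 higher and 8 lower, and the core had 2 higher and 3 lower. The lower genes then numbered 6 among the ubiquitous complex IV subunits, 5 in complex III and 7 in ATP synthase. None of the ubiquitous complex IV subunits was called higher by limma or lay higher at an unadjusted p under 0.05. The same held for ATP synthase (0 at both), though quantile normalization called 3 of its genes higher.

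Atp5e, the epsilon subunit of the catalytic head, read 5.94 and 5.45 in control and 4.26 and 4.51 in colony cells, a fall by 1.31 ± 0.19 (adjusted p = 0.0014). Uqcrh, the hinge protein of complex III, read 6.38 and 6.07 in control and 4.97 and 5.05 in colony cells, a fall by 1.21 ± 0.11 (adjusted p = 0.00021). Ndufc2 fell by 1.15 ± 0.08 (adjusted p = 7.3e-05). These genes and Ndufa3 (-1.08 ± 0.08) and Ndufa1 (-1.05 ± 0.07), all small subunits, were the lowest outside the isoforms and held their calls under every alternative. Among the ubiquitous complex IV subunits the lowest were Cox6c at -0.93 ± 0.09 and Cox7b at -0.86 ± 0.08. Ndufaf3 fell by 0.86 ± 0.07 (adjusted p = 0.00012).

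Some members were higher in colony cells beside Ndufa4l2, Cox6a2 and Cox6b2. Ndufv1, the flavin-binding core subunit of complex I, read 4.82 and 4.77 in control, 5.10 and 5.14 in IL-4, 5.14 and 5.21 in LPS, and 5.49 and 5.50 in colony cells. Colony cells were the highest group, at 0.70 ± 0.07 above control (adjusted p = 0.00023). Uqcrq read 5.60 and 5.43 in control and 6.17 and 6.12 in colony cells, a rise of 0.63 ± 0.08 (adjusted p = 0.00092), while the other 7 Uqcr genes fell. Ndufaf4 rose by 0.53 ± 0.08 (adjusted p = 0.0019). Ndufa12 and Ndufa5, accessory subunits of complex I, rose by 0.33 ± 0.07 and 0.32 ± 0.07 (adjusted p = 0.0086 and 0.0090). Averaging probes turned the direction of Atp5g1, whose representing probe did not pass (0.14 ± 0.08, adjusted p = 0.16) and whose mean over both probes was lower by 0.27 (adjusted p = 0.014).

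Outside the members, 11 of 13 mitochondrial genes fell in colony cells (median -0.68, and 6 fell with quantile normalization). All 4 complex II genes fell, with Sdhb at -1.20 ± 0.09. Of all genes, 46.7% were called lower in colony cells and 24.7% higher. Of 17 complex IV assembly factors 10 fell and 1, Cox18, rose (2.10 ± 0.08), with Surf1, needed for the heme site, at -1.48 ± 0.09 and the chaperones Cox14 at -1.08 ± 0.08 and Cox20 at -1.0 ± 0.09. Cycs rose by 1.05 ± 0.09. Among regulators, 4 rose and 6 fell: the helicase Twnk by 1.25 ± 0.12 and the coactivator Pprc1 by 1.00 ± 0.08 were higher, and Nrf1, the gene of NRF-1, was lower by 0.84 ± 0.11.

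Marker levels also moved with the colony comparison. The macrophage sum was 171 to 175 against 2055 to 2066 in control, and 8 leukocyte markers summed to 143 against 1144 to 1172. Mesothelial markers summed to 393 to 408, with all 8 above background, against 0.058 to 0.078 in control, and fibroblast markers to 245 to 250 against 0.55 to 0.67. Endothelial markers, of which 6 of 8 were tested, summed to 13.3 to 14.3 against 33.4 to 38.2 in control, and Tie1, Emcn and Cdh5 were not above background in colony cells. Mast cell markers summed to 5.96 to 5.98 against 0.69 to 0.85, with all 6 above background. Muscle markers, listed for the muscle-type isoforms, summed to 9.60 to 9.92 against 0.25 to 0.28. The 6 tested were all above background on both colony arrays, and 3 were called higher and 1 lower. The others of the 8 listed, Ckm and Actc1, did not pass the filter on dim probes. The part of other cell types in these differences was not tested. In bulk RNA, fewer cells of a type and less RNA per cell cannot be told apart.

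Against the stimulated macrophages, colony cells were lower again. Against IL-4, 71 members were lower and 4 higher (47.4% and 24.3% of all genes), with a median of -0.85 against -0.37 over all genes. Against LPS, 68 were lower and 5 higher (49.7% and 26.8%), with a median of -0.75 against -0.42. Quantile normalization gave 55 lower and 10 higher against IL-4 (66.3% and 12% of members, against 43.5% and 27.8% of all genes). Against LPS it gave 33 lower and 18 higher (39.8% and 21.7%, against 42% and 32.7%). The members' median against LPS was then -0.13, above the -0.21 over all genes. Ndufa4l2, Cox6a2 and Ndufv1 were higher than in both, by log2 fold changes of 5.69, 2.46 and 0.38 against IL-4 and of 5.87, 2.74 and 0.32 against LPS. The lowest member against LPS was Ndufaf3, at -2.38, followed by Cox5a and Atp5e at -1.60.

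**Figure D5:**
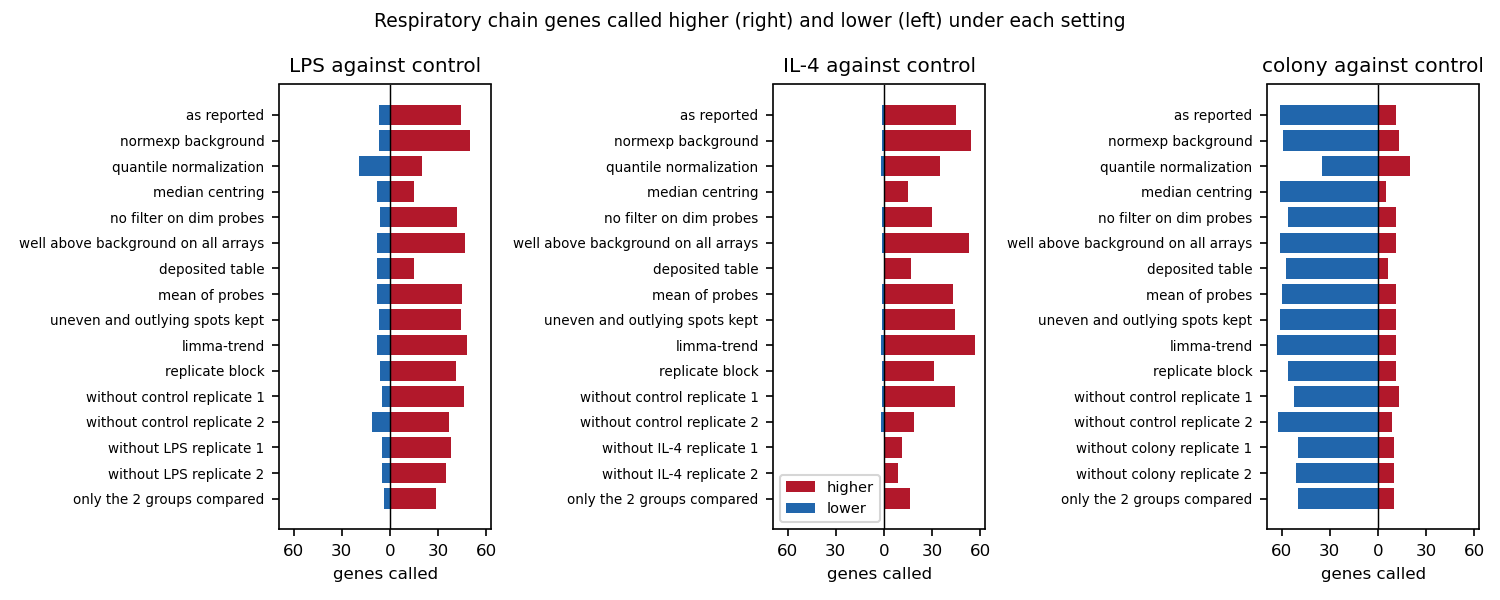
Number of members called higher (red, right) and lower (blue, left) against control under each setting of the processing (y axis), for LPS, IL-4 and colony cells; bars start at 0. The LPS split is even with quantile normalization (20 and 19), the IL-4 count drops without an IL-4 array, and the colony count stays mostly lower. Shares of all genes called also change with the setting and are not drawn.

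Different probes of a gene mostly gave similar differences. For the 28 members with more than 1 probe, the median range between probes was 0.17 after LPS, 0.06 after IL-4 and 0.09 in colony cells. Probes differed by over 1 on the log2 scale in Ndufb5 and Atp5g1 after LPS and in Ndufv3 in colony cells. Ndufb5 has 4 probes, and its representing probe differed by -0.14 between LPS and control where a dim one (chr3:32643684-32643743, mm9) differed by 1.06. The array files place 8 of the 128 member probes on another chromosome than the gene, where copies of these genes may lie, and only the Atp5j2 probe on chr9:21897298-21897357 (mm9) represented its gene. It differed from the Atp5j2 probe on the gene's own chromosome 5 by less than 0.10 in each comparison with control.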

How the data were processed

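Spots were read as intensity values that, per the file headers, Agilent Feature Extraction 10.7.3.1 had background-subtracted; other deposited columns hold 0 or 1 marks per spot, such as well above background. The authors' deposited table is on the log2 scale, with an unstated constant per array; the submitters' processing notes list Partek 6.4 and RMA. Marked uneven or outlying spots were left out, each array's 75th percentile was subtracted from the log2 signal, and a probe was kept if 1 or more groups had it clearly over background on both arrays (39411 probes, 26504 genes). The brightest probe represented a gene. The 4 group means were fitted over 8 arrays with limma 3.58.1 in R 4.3.3 and 4.0 residual degrees of freedom, and checked on simulated data. An exact permutation test of 2 against 2 cannot go below p = 0.333, so calls rest on pooled variances; the number of arrays limits precision. Gene names were updated with RefSeq (GRCm38.p6); probe positions are mm9. Members, lists and the naming rule (the largest and smallest changes per list, all isoforms and paralogs, up to 4 called genes of other lists) were chosen with earlier results of these data known. All arrays shared 1 slide and 1 scan.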

Additional observations from a re-analysis of the deposited data

How the results depend on the processing

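Among alternatives, quantile normalization gave 20 higher and 19 lower members after LPS, 2 lower after IL-4, 20 higher and 35 lower in colony cells, 41 and 7 for IL-4 against LPS, 10 higher for colony cells against IL-4, and 18 and 33 against LPS. Median centring gave 15 higher after LPS, 15 and 0 after IL-4, 5 higher in colony cells, 4 lower for IL-4 against LPS and 3 higher for colony cells against LPS. The deposited table gave 15 higher after LPS, 17 and 0 after IL-4, 6 higher in colony cells and 4 lower for IL-4 against LPS. A fit of only the 2 groups compared gave 29 and 4 after LPS, 16 and 0 after IL-4, 9 lower for IL-4 against LPS and 3 higher for colony cells against LPS. Keeping dim probes gave 7 lower for IL-4 against LPS and 3 higher for colony cells against LPS, and limma with an intensity trend 2 lower after IL-4. Leaving out 1 array at a time gave 35 to 46 higher and 5 to 11 lower after LPS, 9 to 44 and 0 to 2 after IL-4, 9 to 15 and 5 to 9 for IL-4 against LPS, and 3 to 5 higher for colony cells against LPS; the lone array left was assumed to vary like the others. The shares of all genes called moved with the setting too. The cause of these shifts was not tested. With the replicate number as a block, 41 and 6 were called after LPS, 31 and 1 after IL-4, 11 and 56 in colony cells and 16 and 8 for IL-4 against LPS. Replicates with the same number did not deviate together (Pearson r across genes -0.16 to 0.05). With 2 arrays per group this cannot tell whether the numbers pair samples. Crossing the numbers of control and colony cells, tried after seeing r = -0.16, gave 11 and 57. Of single genes named, Atp5g1 in colony cells turned, to -0.27, with probes averaged.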

Other observations

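Mitochondrial ribosomal proteins, which are encoded in the nucleus and build the ribosomes that translate the mitochondrial subunits, were followed beside the chain. Of 78 genes, 52 rose and 1 fell after LPS, with a median log2 fold change of 0.55, while 21 rose and none fell after IL-4 (median 0.22). Of all genes, 28.9% were called higher and 25.8% lower after LPS, and 9.87% and 9.18% after IL-4. In colony cells 10 rose and 33 fell (median -0.17, against -0.35 over all genes), where 24.7% of all genes were called higher and 46.7% lower. After LPS the largest changes were in Mrpl52 at 1.97, Mrpl38 at 1.29, Mrpl47 at 1.22 and Mrpl45 at 1.19. Under quantile normalization the median after LPS was 0.33.

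Several genes now carry a respiratory chain name but had another on the array, so the name rule left them out; they were looked up after the values of the members were seen. Ndufb1, a complex I subunit listed as Gm2695, was higher by 2.05 ± 0.13 after LPS (limma adjusted p = 0.00010) and lower in colony cells, with a difference of -1.26 ± 0.13 (adjusted p = 0.00038). Atp5md, listed as Usmg5, was higher by 0.91 ± 0.11 after LPS and 0.56 ± 0.11 after IL-4. Atp5mpl, listed as 2010107E04Rik, did not pass after LPS at 0.02 ± 0.09 (adjusted p = 0.88) and differed by -1.0 ± 0.09 in colony cells (adjusted p = 0.00022). Ndufa11b, listed as Gm4943, was higher by 1.04 ± 0.11 after LPS (adjusted p = 0.00071). Among the assembly factors, Ndufaf6 was higher by 0.88 ± 0.15 after LPS and Ndufaf7 was lower, with a difference of -0.74 ± 0.11, while Ndufaf5 and Ndufaf8 did not pass after LPS, at -0.09 ± 0.11 and -0.05 ± 0.10.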
